A study of Mus musculus with 12 samples.

Results

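The numbered zinc finger genes of the mouse carry the symbol *Zfp* followed by a number and, in some cases, a letter. The deposited table listed 379 such genes among 24824 genes. The 174 genes described here were those with a mean of at least 3 FPKM (a level corrected for gene length and for the library total) in the untreated group, so that their level in that group chose them and is not a finding. All 174 were among the 10615 genes that passed the filter on low values, a mean of at least 1 FPKM over the 12 libraries.

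The study measured polyadenylated RNA of AML12, an immortalized mouse hepatocyte line labelled wild type, to examine how copper overload and a bile acid change transcription in liver cells. Group A was grown in standard medium, without added agents. Group B received 300 μM CuCl2 with 40 nM elesclomol (ES), an ionophore that carries copper into cells. Group C received the same CuCl2 and ES together with 1000 μM taurocholic acid (TCA), a conjugated bile acid, and group D received 1000 μM TCA without CuCl2 or ES. Every group was kept for 24 h and had 3 libraries. The sources do not say whether the libraries of a group came from separate cultures, so the p-values measure the spread between these libraries, which may be technical.

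A classical zinc finger is a short fold in which a pair of cysteines and a pair of histidines hold a zinc ion, and arrays of such fingers read DNA sequence. Many of these proteins also carry a KRAB domain, which recruits the corepressor TRIM28 (KAP1) and through it the histone methyltransferase SETDB1, and KRAB zinc finger proteins are known for silencing transposable elements and for guarding imprinted loci. Others of the numbered genes encode transcription activators, RNA-binding proteins, ubiquitin or SUMO ligases, or proteins of ribosome assembly.

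The spacing of the FPKM values gives the library totals, which ran from 38298857 to 39782142 reads in groups A and D and from 29115011 to 34912748 in groups B and C. Of 12 hepatocyte markers, 9 were in the table. *Alb*, *Apob*, *Hnf4a* and *Fgb* were at 0 in every library of group A, while the keratins *Krt8* and *Krt18*, which other epithelial cells also express, averaged 344 ± 37.7 and 285 ± 22.7 FPKM (SD, n = 3), so defining hepatocyte transcripts were largely absent from these cells. The summed level of the 9, nearly all of it the keratins, was 602 to 655 FPKM in A and 238 to 290 in B. It was 174 to 210 in C and 704 to 722 in D. *Foxa2* averaged 4.89 FPKM in A, 2.07 in B, 1.60 in C and 4.89 in D, and *Apoa2* 1.06 in A and 0.713 in B. *Apoa1* went the other way, from 0.0086 in A to 1.86 in B and 1.11 in C. The summed level of 6 fibroblast markers, in A and D most of it *Col3a1*, was 132 to 195 FPKM in group A, 114 to 176 in D, 2.97 to 5.53 in B and 1.11 to 2.05 in C. *Acta2* and *Col1a2*, both with means under 1 FPKM in every group, were higher in B than in A, and the rest of the 6 lower. The summed level of 5 cholangiocyte markers, most of it *Krt19*, was 231 to 326 in A, 113 to 142 in B, 133 to 141 in C and 158 to 246 in D. These markers did not move together. *Krt19* fell from a mean of 268 FPKM in A to 77.3 in B, while *Sox9* rose from 10.6 to 50.9 and *Cftr* from 0.068 to 1.69. *Krt7* and *Epcam* averaged under 1 FPKM in every group. The summed level of 4 endothelial markers, in B and C most of it *Pecam1*, was 0.922 to 1.16 in A, 6.79 to 10.5 in B, 16.5 to 19.7 in C and 0.865 to 1.25 in D. That of 4 macrophage markers, nearly all of it *Cd68* with *Adgre1* at 0 in every library of A, B and D, was 72.5 to 102 in A and 24.1 to 37.0 across B, C and D. The part of these shifts in the results below was not tested. The second library of group C was the lowest of its group for 101 of the 174 members and for 48.2% of all genes tested.

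The typical gene had lower FPKM with copper. On the log2(FPKM + 1) scale used throughout, the median gene had a log2 fold change of -1.13 in C vs. D and -1.10 in B vs. A, and of -0.03 in C vs. B and -0.01 in D vs. A. FPKM are shares of a library, so the zero line of the copper comparisons depends on the scaling. Values relative to the median gene are therefore given beside the fold changes, and calls were repeated under median-ratio scaling, TPM, quantile normalization and limma-voom on the recovered reads. Changes of RNA per cell and changes in the number of cells cannot be told apart in such bulk samples.

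Coding sequences were found for 172 of the 174 members. The residues of a classical finger, cysteine and histidine pairs at their usual spacing, occurred at least 1 time in 167 members and at least 3 times in 152, with up to 36 in *Zfp142*. The core of a KRAB domain was found in 72 members, which had a median of 11.5 fingers and 4.68 FPKM in group A, and not in 100 members, which had a median of 7 fingers and 7.49 FPKM. The search pattern misses divergent KRAB domains, so the 72 are a lower count. The largest numbers of members lay on chromosome 7, with 35, and chromosome 17, with 24, of which 13 and 19 had a KRAB match. Such clusters hold close copies of one another, and the values of genes in them are uncertain where reads could be shared.

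The coding bases below show these parts in the members on which the results turn, with position counted from the first base of the longest coding sequence in GENCODE M21. In the fingers, capitals mark the codons of the zinc-holding cysteines and histidines. *Zfp367* and *Zfp655* had the largest increases in C vs. D and *Zfp414* the largest decrease, and *Zfp942*, the member with the largest decrease in D vs. A on the log2(FPKM + 1) scale, is shown with the linker that joins its finger to the next. *Zfp36*, chromosome 7, has no classical finger but 2 of the CCCH type, which bind RNA:
Zfp36, bases 301 to 360: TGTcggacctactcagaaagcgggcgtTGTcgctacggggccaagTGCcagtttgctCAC
Zfp367, chromosome 13, bases 475 to 537: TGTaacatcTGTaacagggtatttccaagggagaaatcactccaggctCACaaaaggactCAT
Zfp655, chromosome 5, bases 733 to 795: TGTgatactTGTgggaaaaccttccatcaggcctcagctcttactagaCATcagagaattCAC
Zfp414, chromosome 17, bases 301 to 369: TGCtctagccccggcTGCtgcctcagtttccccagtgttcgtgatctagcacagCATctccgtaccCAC
Zfp942, chromosome 17, bases 553 to 630: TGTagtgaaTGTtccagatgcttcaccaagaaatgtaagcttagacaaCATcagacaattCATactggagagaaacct

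The KRAB cores of the 3 members with the largest decreases in D vs. A are set beside that of *Zfp445*, which takes part in imprinting. Capitals mark the codons of the aspartate, valine and phenylalanine of the first pattern searched, which also limited its end residues. A second pattern, without these residues, counted as a match too. The 4 stretches shown met the first pattern and are equally long:
Zfp942, bases 43 to 81: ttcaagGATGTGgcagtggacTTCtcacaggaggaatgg
Zfp60, chromosome 7, bases 46 to 84: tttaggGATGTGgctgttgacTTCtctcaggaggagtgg
Zfp991, chromosome 4, bases 43 to 81: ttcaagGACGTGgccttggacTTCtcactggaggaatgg
Zfp445, chromosome 9, bases 661 to 699: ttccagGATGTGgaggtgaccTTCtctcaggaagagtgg

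The group A means of the members reached from 3.04 to 78.4 FPKM, with a median of 6.24. *Zfp207*, which encodes the kinetochore and spindle protein BuGZ, was the highest, with 80.7, 79.1 and 75.5 FPKM in group A, 129, 139 and 120 in B, 127, 99.7 and 145 in C, and 81.5, 92.0 and 83.8 in D. *Zfp106*, an RNA-binding protein, had 51.6 to 54.5 in A, 8.32 to 10.4 in B, 7.004 to 9.28 in C and 51.2 to 52.4 in D. *Zfp740* had 50.6 to 50.8 FPKM in A and 23.5 to 25.7 in B. The first of these genes was thus higher with copper in every library and *Zfp106* lower in every library, while *Zfp740* was lower in FPKM but higher with copper under median-ratio scaling and limma-voom. The median over all 174 members was 2.12 FPKM in group B, 2.27 in C and 5.88 in D. All 174 stayed at 1 FPKM or more in group D, whereas 58 in group B and 59 in group C were under 1 FPKM. *Zfp870* and *Zfp58* were just inside the threshold of selection, with 3.04 and 3.05 FPKM in group A, and *Zfp629* and *Zfp65* just outside it, with 2.99 and 2.98.

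C vs. D asks what copper changed in the presence of TCA, and contains no library of the group that chose the members. Of the 174 members, 90 (51.7%) were lower past both thresholds (adjusted p under 0.05 and a log2 change of more than 1), where 53.3% of all genes tested were. Higher past both thresholds were 8 (4.60%), where 11.2% of all genes were. Among the 8923 other genes at 3 FPKM or more in group A, 58.1% were lower and 7.88% higher. The share of lower genes depended on the group used for the choice. Chosen by a mean of at least 3 FPKM in group B, which does not enter C vs. D either, 11 of 74 numbered *Zfp* genes (14.9%) were lower and 10 (13.5%) higher, beside 36.4% and 16.9% of all genes tested at that level in B. The members' median log2 fold change was -1.05, or 0.07 above that of the median gene. Over the alternatives this difference changed sign, from -0.03 with limma-voom to 0.44 with a filter at a mean of 3 FPKM. Under each of the other 4 scalings, 59 of the 90 stayed lower past the adjusted p, which is 33.9% of the members beside 38.2% of all genes, while 18 of the 90 turned to higher under at least one scaling. The 8 higher members (4.60% of the members) stayed higher past the adjusted p under all 4. So did 1180 of the 1189 genes called higher among all genes tested, which is 11.1% of all genes. By median-ratio scaling the split was 42 lower and 41 higher, where 25.1% and 27.8% of all genes were, with a members' median of -0.03.

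**Figure D1:**
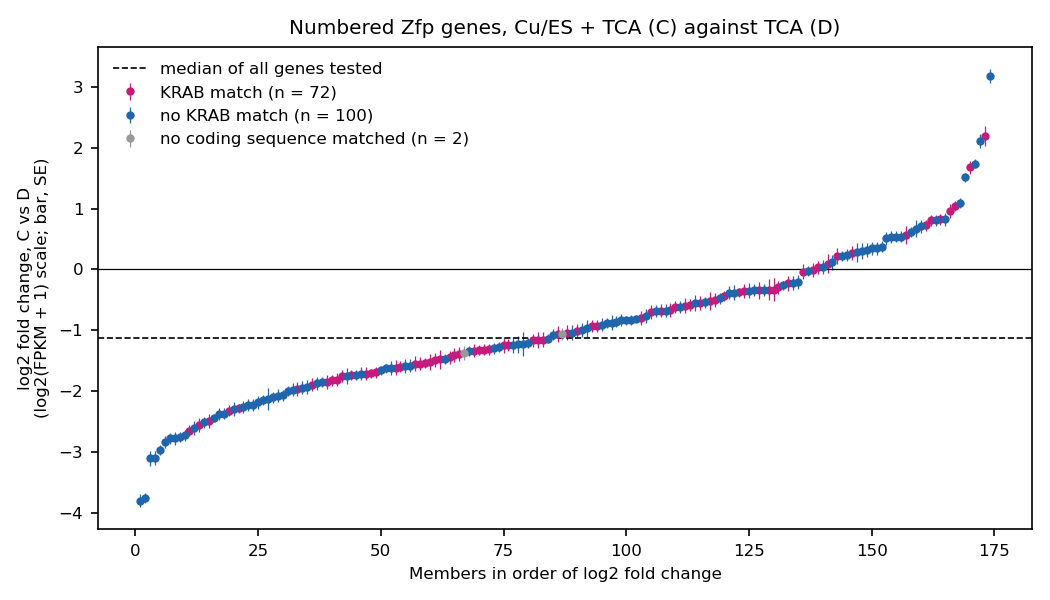
Log2 fold change of each of the 174 members in C vs. D, in rank order, with its standard error, colored by whether the coding sequence held a KRAB match. The dashed line is the median of all genes tested (-1.13); the members lie on both sides of it, from Zfp414 at -3.80 to Zfp367 at 3.18, and most lie below 0.

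Set beside other genes of the same range of group A level, the members were less reduced in the middle ranges. Between 5 and 10 FPKM in group A, the median log2 fold change in C vs. D was -0.93 over 70 members and -1.47 over 2083 other genes. Between 10 and 20 FPKM it was -0.84 over 27 members and -1.46 over 2270 other genes. At 3 to 5 FPKM (-1.23 over 64 members, -1.21 over 1179 others) and at 20 FPKM and above (-1.14 over 13 members, -1.06 over 3391 others) the medians lay close together. These differences of medians were not tested, and the quartiles overlapped in every range. Members with a KRAB match had a median of -1.05 and those without one of -1.02, and by number of fingers the medians were -1.08 over the 30 members with 0 to 3, -1.12 over the 40 with 4 to 8, -1.27 over the 64 with 9 to 12 and -0.76 over the 38 with 13 or more.

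**Figure D2:**
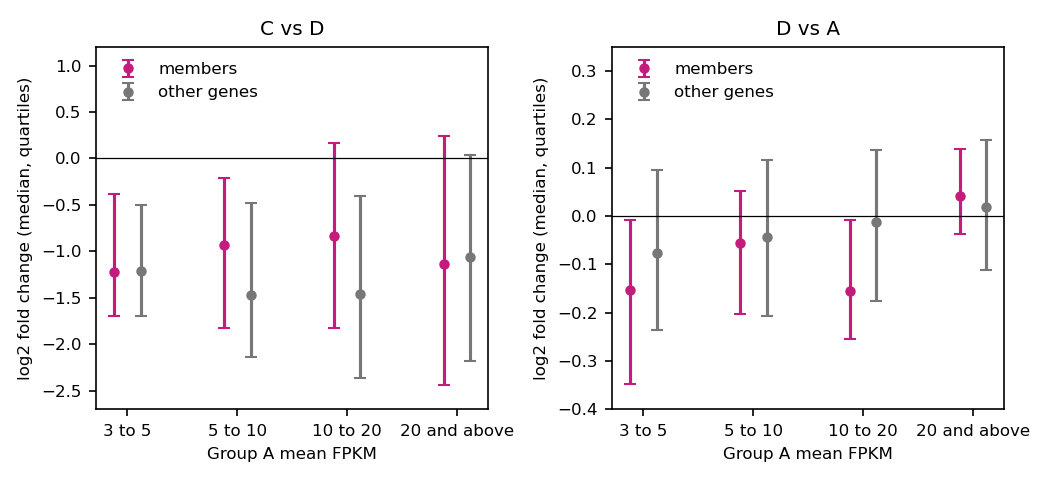
Median (point) and quartiles (bars) of the log2 fold change in 4 ranges of group A FPKM, for members and for other genes, in C vs. D (left) and D vs. A (right). In C vs. D the members' medians lie above those of other genes in the middle ranges (-0.93 against -1.47 and -0.84 against -1.46); in D vs. A they lie below them at 3 to 5 FPKM (-0.15 against -0.08), at 10 to 20 FPKM (-0.15 against -0.01) and, by less, at 5 to 10 FPKM (-0.06 against -0.04), and above them at 20 FPKM and more (0.04 against 0.02).

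The member with the largest rise in C vs. D was *Zfp367*. It had 44.1, 44.1 and 46.2 FPKM in group C and 3.81, 4.42 and 3.97 in D, with 30.7 to 42.3 in B and 5.61 to 7.81 in A. The copper-treated libraries were all far above the others, and the rise was 11.02-fold on the FPKM scale, with a log2 fold change of 3.18 ± 0.12 (SE) and an adjusted p of 3.35e-12. *Zfp655*, a KRAB member, had 45.8, 25.5 and 42.8 FPKM in C and 7.31, 7.69 and 6.89 in D. Its groups did not overlap although the second library of group C was well below the others, and the log2 fold change was 2.19 ± 0.16, adjusted p = 6.87e-09.

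*Zfp36* encodes tristetraprolin, which binds AU-rich elements of cytokine and other short-lived mRNAs and speeds their decay. It had 188, 187 and 198 FPKM in group C, 105, 109 and 114 in B, 43.3, 39.1 and 48.1 in D, and 38.5, 33.9 and 49.8 in A. It rose 4.39-fold in C vs. D (log2 2.11 ± 0.11, adjusted p = 1.64e-10), and it also rose 1.75-fold in C vs. B (log2 0.80 ± 0.11, adjusted p = 8.51e-05). No library of group C overlapped with B, nor B with A or D, so its levels formed 3 separate steps.

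*Zfp622*, whose protein works in the late assembly of the large ribosomal subunit, had 75.6, 79.7 and 78.4 FPKM in C and 28.9, 24.6 and 26.6 in D, a log2 rise of 1.51 ± 0.07 (adjusted p = 7.38e-11). *Zfp143*, an activator of small nuclear RNA and selenocysteine tRNA genes, had 15.9, 14.6 and 15.3 in C and 5.93, 7.20 and 6.89 in D, a log2 rise of 1.09 ± 0.08 (adjusted p = 6.95e-09). The remaining members past both thresholds were *Zfp513*, with 28.5 to 32.4 FPKM in C and 8.05 to 8.89 in D, *Zfp941*, with 10.01 to 14.6 and 2.96 to 3.34, and *Zfp869*, with 16.7 to 19.3 and 7.95 to 9.34. Of these 8 members, *Zfp655*, *Zfp941* and *Zfp869* had a KRAB match.

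The members that fell most in C vs. D were near 0 in both copper groups. *Zfp414* had 20.2, 23.7 and 26.2 FPKM in D and 0.607, 0.633 and 1.01 in C, a log2 fold change of -3.80 ± 0.11 (adjusted p = 3.23e-13) that rested on 20 to 37 reads per library in C. *Zfp395* had 14.7, 15.4 and 15.3 in D and 0.138, 0.244 and 0.208 in C, a level 76.9-fold lower (log2 -3.75 ± 0.08, adjusted p = 6.15e-14). Both genes were also lower in D than in A, with 31.7 to 33.7 FPKM of *Zfp414* and 19.7 to 23.1 of *Zfp395* in A, and the groups did not overlap.

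The other 6 of the 8 largest falls were *Zfp358*, *Zfp512b*, *Zfp639*, *Zfp365*, *Zfp768* and *Zfp275*, with log2 fold changes from -3.11 to -2.77, group D means from 7.36 to 11.4 FPKM and group C means from 0.225 to 0.668. *Zfp768*, with 7.22 to 7.56 FPKM in D and 6.87 to 7.47 in A, had 0.014 to 0.101 in B and 0.138 to 0.372 in C. None of the 8 had a KRAB match. *Zfp365* had no classical finger motif in its longest coding sequence. All 8 stayed lower in C vs. D past the adjusted p under every alternative in which they were tested.

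**Figure D3:**
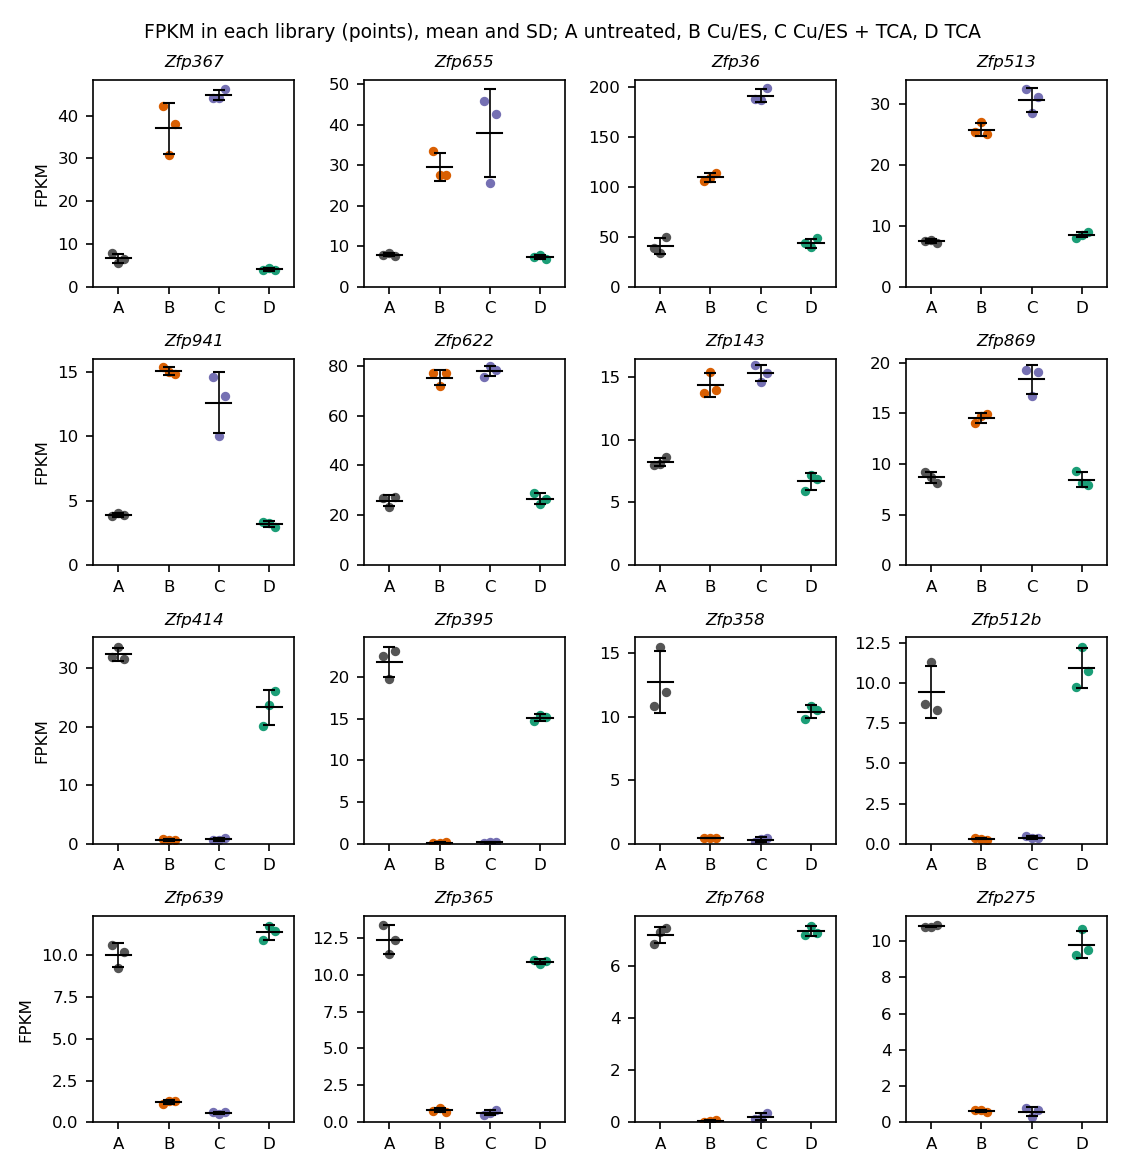
FPKM in each library (points) with the mean and SD of each group for the 8 members with the largest rises (upper rows) and the 8 with the largest falls (lower rows) in C vs. D; each axis starts at 0. In the upper rows groups B and C lie above A and D; in the lower rows they lie near 0, as in Zfp414 with 0.607 to 1.01 FPKM in C and 20.2 to 26.2 in D.

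By the adjusted p alone, 71.5% of all genes were lower and 20.9% higher in C vs. D, and the counts by role and of corepressors are set beside these shares. The 10 members of RNA binding, splicing and translation included 4 that were lower and 5 that were higher in C vs. D past the adjusted p, with 3 and 2 past both thresholds, and a median log2 fold change of 0.24, which is 1.37 above the median gene. *Zfp598*, the ubiquitin ligase that senses collided ribosomes, fell from 44.2 to 50.3 FPKM in D to 13.1 to 14.8 in C (log2 -1.66 ± 0.07, adjusted p = 2.63e-11). *Zfp106* fell (log2 -2.51 ± 0.09), as did *Zfp385a*, an RNA-binding regulator of p53 target choice, from 7.74 to 8.59 FPKM to 1.25 to 2.01 (log2 -1.87 ± 0.11). *Zfp207* (log2 0.51 ± 0.11, adjusted p = 4.66e-04), *Zfp326*, a subunit of the DBIRD complex that links transcription to splicing (0.54 ± 0.10), and *Zfp830*, a splicing factor (0.37 ± 0.09), rose by less than the fold threshold. *Zfp346*, a binder of double-stranded RNA, had 7.77 to 11.9 FPKM in C and 8.997 to 9.22 in D, and the groups overlapped.

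Among 8 transcription activators and their partners, 5 were higher and 3 lower in C vs. D past the adjusted p. Beside *Zfp143*, *Zfp335* (0.71 ± 0.10) and *Zfp410*, the activator of *Chd4* (0.62 ± 0.08), rose, with *Zfp281* and *Zfp384* at 0.35 and overlapping groups. *Zfp148* fell from 7.20 to 7.94 FPKM in D to 1.64 to 2.13 in C (log2 -1.58 ± 0.10, adjusted p = 1.21e-09). *Zfp609* fell (-1.24 ± 0.14), although quantile normalization put it at 0.02, and *Zfp687* fell (-0.38 ± 0.13) but was higher under 3 of the 4 other scalings. The median of the 8 was 0.35, or 1.47 above the median gene.

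Of the 5 members in chromatin silencing, 4 were lower in C vs. D past the adjusted p and none passed the fold threshold, and the direction of every one of the 5 turned to higher under 3 of the 4 other scalings. *Zfp57*, which with *Zfp445* maintains imprinted methylation, had 5.78 to 7.03 FPKM in D and 2.46 to 3.08 in C. *Zfp809*, the KRAB protein that silences retroviral DNA with TRIM28, had 4.35 to 5.09 in D and 1.89 to 2.65 in C. *Zfp445* had 13.3 to 15.7 in D and 6.92 to 9.83 in C, and *Zfp638*, which takes part in silencing unintegrated retroviral DNA, 9.64 to 11.7 and 5.19 to 5.77. *Zfp644*, a partner of the methyltransferases G9a and GLP, had 5.56 to 7.18 in D and 4.19 to 5.72 in C, and those groups overlapped.

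All 4 members in metabolism and development fell in C vs. D. *Zfp746* (PARIS), a repressor of *Ppargc1a*, had 6.45 to 7.01 FPKM in D and 0.087 to 0.193 in C (log2 -2.76 ± 0.08, adjusted p = 5.58e-13). *Zfp692*, reported to act on gluconeogenic genes, had 8.90 to 10.1 in D and 1.15 to 1.52 in C (log2 -2.18 ± 0.10). *Zfp703* fell from 36.2 to 41.2 FPKM to 9.91 to 10.2 (log2 -1.85 ± 0.08), and *Zfp516*, an activator of brown fat genes, fell by less (-0.68 ± 0.10) and was higher under 3 of the 4 other scalings. Of the 3 ubiquitin and SUMO ligases, *Zfp598* and *Zfp91* fell and *Zfp451* rose, with *Zfp91* higher by 0.08 under median-ratio scaling.

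C vs. B asks what TCA changed in the presence of copper, and also contains no library of group A. By the adjusted p alone, 23 members (13.2%) were lower, where 23.6% of all genes were, and 28 members (16.1%) were higher, where 20.4% of all genes were. The share of lower genes depended on the level. At 3 to 5 FPKM in group A, 7.81% of members and 11.8% of other genes were lower. The shares were 15.7% and 18.1% at 5 to 10 FPKM, and 22.2% and 26.1% at 10 to 20. At 20 FPKM and above they were 7.69%, over 13 members, and 37.2%. These differences were not tested. None passed the fold threshold in either direction with limma on log2(FPKM + 1). A pseudocount of 0.1 put 1 lower and 4 higher members past it, TPM 1 higher member, and limma-voom on recovered reads 5 in each direction. The members' median was 0.01. Under each of the other 4 scalings 13 of the 23 (7.47% of the members, beside 16.8% of all genes) and 26 of the 28 (14.9%, beside 18.1%) kept their call and direction. Leaving out 1 library at a time gave 13 to 20 lower members, with 13 without the first library of group B, and 21 to 37 higher, with 21 without the first or the third library of group C and 37 without the second.

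After *Zfp36*, the largest rises in C vs. B were those of *Zfp532*, *Zfp91*, *Zfp787*, *Zfp451* and *Zfp346*. *Zfp91*, a ubiquitin ligase of noncanonical NF-κB signalling, had 9.33, 7.47 and 8.26 FPKM in C and 4.53, 4.21 and 4.70 in B, beside 18.3 to 21.6 in A and 19.7 to 21.1 in D. It rose 1.87-fold in C vs. B (log2 0.77 ± 0.09, adjusted p = 1.67e-05) and lay below A and D in every copper-treated library. *Zfp787* had 4.80 to 5.28 in C and 2.49 to 2.69 in B (log2 0.74 ± 0.09, adjusted p = 2.50e-05), and *Zfp532* had 2.08 to 3.27 and 0.988 to 1.35 (log2 0.78 ± 0.13).

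*Zfp451*, a SUMO ligase of the DNA damage response, had 14.1, 8.84 and 13.6 FPKM in C and 6.34 to 7.77 in B, beside 6.50 to 7.16 in A and 6.86 to 7.38 in D. In FPKM, group C stood alone above the other 3 groups (log2 0.71 ± 0.13 against B, adjusted p = 7.54e-04). The log2 fold change of *Zfp451* in B vs. A depended on the scaling. It was -0.005 in the main fit, 1.16 under median-ratio scaling, 1.26 under quantile normalization and 1.19 with limma-voom. *Zfp346* had 10.6, 7.77 and 11.9 in C and 5.60 to 6.02 in B (log2 0.70 ± 0.13). *Zfp703* (0.57 ± 0.08, adjusted p = 6.09e-05) and *Zfp687* (0.48 ± 0.13) were also higher in C than in B.

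The largest falls in C vs. B were those of *Zfp97*, *Zfp593*, *Zfp639*, *Zfp280c*, *Zfp638* and *Zfp511*, with log2 fold changes from -0.60 to -0.44. *Zfp593*, a ribosome assembly factor, had 12.6, 14.7 and 12.3 FPKM in B and 8.64, 8.92 and 8.01 in C, beside 7.10 to 9.52 in A and 8.87 to 11.7 in D (log2 -0.57 ± 0.11 in C vs. B, adjusted p = 1.09e-03). In FPKM, group B was thus the only group above the range of the others. The log2 fold change of *Zfp593* in C vs. D, however, was -0.21 in the main fit and 1.04 under median-ratio scaling. It was 0.94 under quantile normalization and 0.98 with limma-voom. *Zfp97*, a KRAB member, had 3.84 to 5.46 in B and 2.41 to 2.92 in C. *Zfp639* had 1.08 to 1.31 in B and 0.521 to 0.624 in C (log2 -0.49 ± 0.08, adjusted p = 2.96e-04), and *Zfp638* 7.55 to 8.26 and 5.19 to 5.77 (log2 -0.44 ± 0.08).

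**Figure D4:**
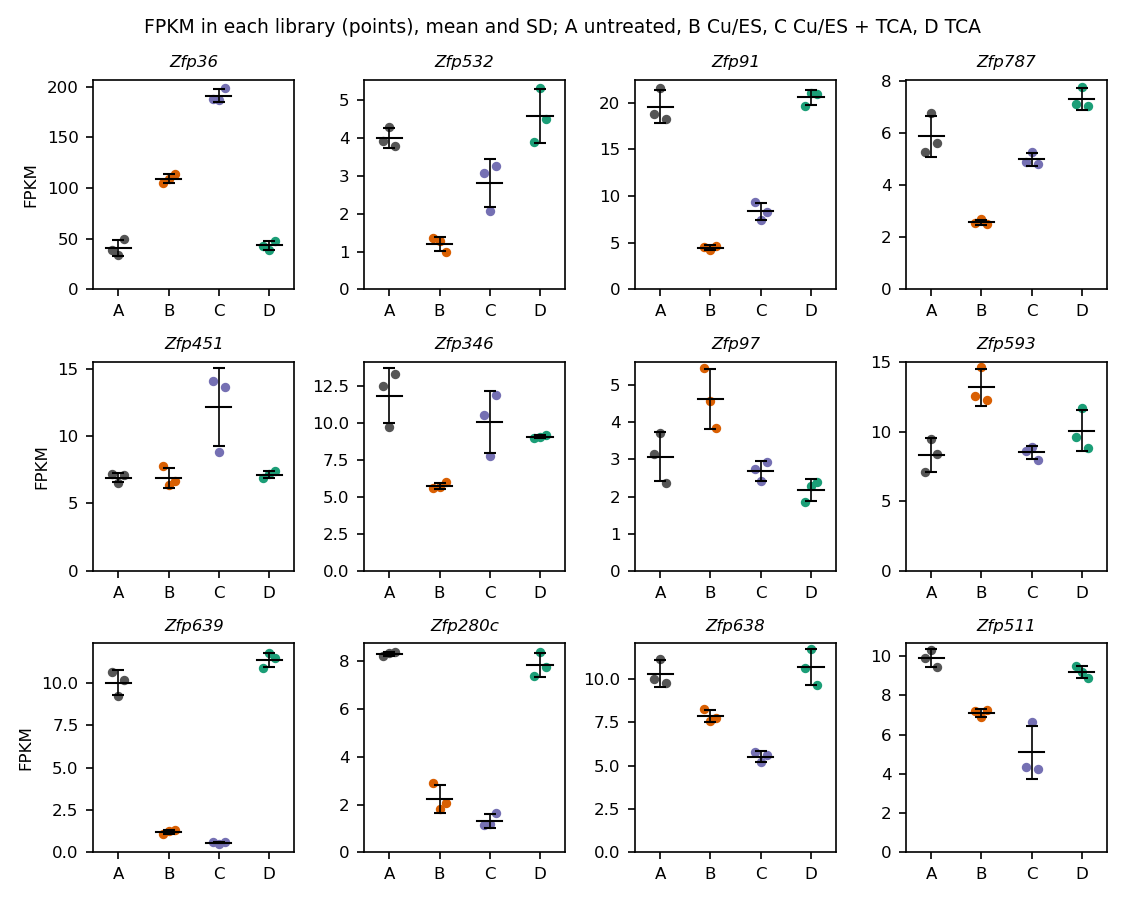
FPKM in each library (points) with the mean and SD of each group for the 6 members with the largest rises and the 6 with the largest falls in C vs. B; each axis starts at 0. Zfp36 has 187 to 198 FPKM in C and 105 to 114 in B, and in Zfp451 the second library of group C (8.84 FPKM) lies below the other libraries of that group.

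D vs. A asks what TCA changed without copper. The group A values that chose the members enter this difference, so its calls are counted as a description, no p is given and nothing is read from the counts. By the adjusted p alone, 37 members (21.3%) were lower in D, beside 11.5% of all genes, and 7 (4.02%) were higher, beside 10.5%. None passed the fold threshold, with limma-voom either, and the members' median was -0.10. Leaving out the first library of group A gave 17 lower members, and leaving out the first or the third library of group D gave 21 or 18. When the genes were chosen instead by a mean of at least 3 FPKM in group D, 19 of 153 (12.4%) were lower and 7 (4.58%) higher, beside 10.1% and 11.8% of all genes at that level in D. When chosen in group B, which does not enter the difference, 9 of 74 (12.2%) were lower and 4 (5.41%) higher, beside 6.89% and 14.8% of all genes at that level in B.

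Of the 37 lower members, 26 had a KRAB match. Among all 72 with a match, these 26 were lower and 1 was higher, with a median of -0.22, and of the 100 without one, 11 were lower and 6 higher, with a median of -0.01. All 3 libraries of D lay below all 3 of A for 38 of the 72 and for 23 of the 100, where 23.5% of all genes did. All 3 lay above A for 2 of the 72 and for 15 of the 100, where 20.7% of all genes did. Over the 72, the median FPKM was 4.86, 4.68 and 4.46 in the libraries of A and 3.83, 4.28 and 3.92 in those of D, which did not overlap. Over the 100 it was 7.54, 7.60 and 7.36 in A and 7.04, 7.77 and 7.40 in D, which overlapped.

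**Figure D5:**
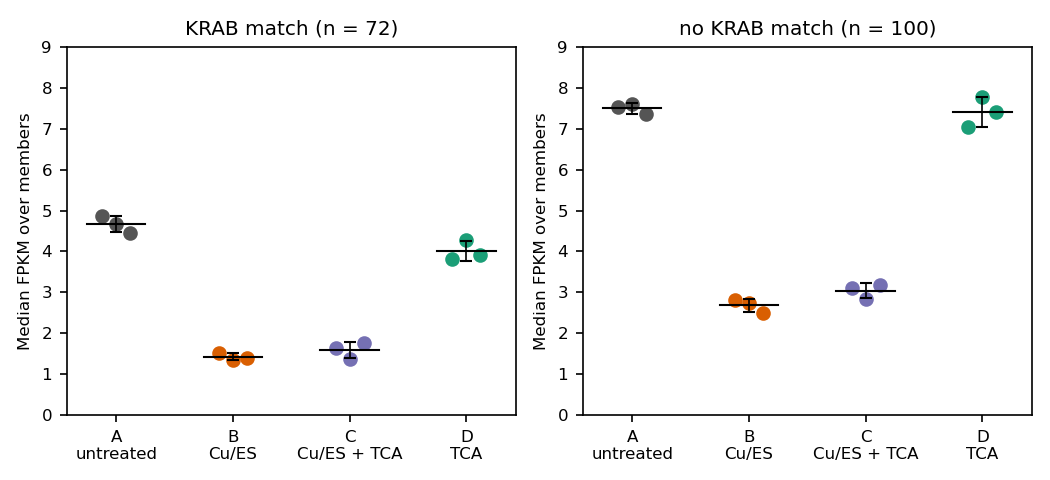
Median FPKM over the 72 members with a KRAB match (left) and the 100 without one (right) in each library (points), with the mean and SD of each group; both axes start at 0. With a KRAB match the libraries of D (3.83 to 4.28) lie below those of A (4.46 to 4.86); without one the groups overlap (7.04 to 7.77 against 7.36 to 7.60). Groups B and C lie below A and D in both panels.

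The count of KRAB members lower in D vs. A depended on the libraries, the scaling, the pseudocount and the choice of genes. It was 26 with limma on log2(FPKM + 1), beside 11.5% of all genes, 16 under median-ratio scaling (7.23%) and 15 with TPM (8.01%). The count was 13 under quantile normalization (11.2%), 28 with limma-voom (13.9%) and 9 with a pseudocount of 0.1 (5.45%). Of the 26, 10 kept the call under all 4 other scalings. Among all genes tested, 586 of the 1225 called lower kept it, which is 5.52% of all genes. Among members at 3 to 5 FPKM in group A, 16 of 39 with a KRAB match and 4 of 23 without one were lower, beside 187 of 1179 other genes in that range. Between 5 and 10 FPKM the counts were 6 of 26 and 4 of 44, beside 293 of 2083. Leaving out the first library of group A gave 12 lower KRAB members and leaving out the third of group D gave 13. Chosen on group D, 11 of 54 with a match were lower and 1 was higher, beside 8 and 6 of 97 without one. Chosen on group B, 5 of 25 with a match were lower and 1 was higher, beside 4 and 3 of 49 without one. Over all numbered genes that passed the filter on low values, 41 of 113 with a match were lower and 1 higher, beside 11 and 7 of 116 without one. The difference between genes with and without a match was not tested.

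*Zfp942* had 4.48, 4.998 and 5.23 FPKM in D and 11.1, 8.55 and 7.77 in A, beside 6.56 to 9.95 in B and 7.004 to 8.48 in C. In FPKM, group D alone was thus low. The log2 fold change of *Zfp942* in B vs. A depended on the scaling. It was -0.22 in the main fit, 0.97 under median-ratio scaling, 0.99 under quantile normalization and 0.95 with limma-voom. *Zfp60* had 6.73, 6.35 and 6.01 in A and 3.72, 4.42 and 3.35 in D, and *Zfp991* had 4.03, 3.14 and 2.40 in A and 1.28, 1.83 and 1.74 in D. The decreases were 1.86-fold, 1.66-fold and 1.97-fold. At the other end, *Zfp35* had 4.05 to 4.88 in A and 5.74 to 6.49 in D, *Zfp131* 12.7 to 17.9 and 18.6 to 22.005, and *Zfp598* 33.2 to 37.8 and 44.2 to 50.3. None of these 3 had a KRAB match.

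B vs. A, copper without TCA, also uses the group A values that chose the members, so its calls are a description from which nothing is read. Past both thresholds, 100 members (57.5%) were lower, beside 53% of all genes, and 8 (4.60%) were higher, beside 10.1%. Of the other genes at 3 FPKM or more in group A, 57% were lower and 7.24% higher. The members' median was -1.22, or -0.12 relative to the median gene. Over the alternatives this difference ran from -0.32 with limma-voom to 0.21 under quantile normalization. By median-ratio scaling the members' split was 50 lower and 35 higher, beside 24.6% and 26.9% of all genes. Chosen on group D, which does not enter this difference, 83 of 153 (54.2%) were lower and 8 (5.23%) higher, beside 56.1% and 7.51% of all genes at 3 FPKM or more in D, and chosen on group B, 11 and 10 of 74 were, beside 33.5% and 15.9%. *Zfp414* (31.7 to 33.7 FPKM in A, 0.574 to 0.780 in B) and *Zfp395* (19.7 to 23.1 and 0.092 to 0.196) had the lowest log2 fold changes of the members named, both at -4.33, and *Zfp367* (5.61 to 7.81 and 30.7 to 42.3) had the highest, at 2.32. C vs. D and B vs. A share no libraries, but the members were chosen in a group of the latter.

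The partners of the KRAB domain were measured as a list of 25 corepressor genes, all of which passed the filter. In C vs. D, 23 were lower and 1 higher past the adjusted p, where 71.5% and 20.9% of all genes were, with a median of -1.15 that was -0.02 relative to the median gene. *Trim28* had 81.2 ± 4.93 FPKM in D and 31.5 ± 4.96 in C, and *Setdb1* 25.6 ± 2.02 and 4.43 ± 0.43 (SD, n = 3). *Morc2a*, a HUSH-associated ATPase, was the gene that rose, from a mean of 26.2 FPKM in D to 74.9 in C. In C vs. B, 13 of the 25 were lower and 3 higher, beside 23.6% and 20.4% of all genes. In D vs. A, 3 were lower and 1 higher, beside 11.5% and 10.5%, with a median of -0.02. The list had no threshold on the group A level, so this median is not comparable with that of the KRAB members.

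Other families of classical zinc finger genes, chosen at the same level in group A, had medians in C vs. D of -0.89 over 22 *Zbtb* genes, -2.01 over 6 *Zkscan* genes, 0.26 over 5 *Zscan* genes and -0.09 over 9 *Klf* genes. The 4 genes named Sp with a number had a median of -0.39, and they include *Sp100*, which is not of that factor family. In C vs. B, 11 of the 22 *Zbtb* and 7 of the 9 *Klf* genes were higher past the adjusted p and none of either lower, beside 28 higher and 23 lower of the 174 members and 20.4% higher and 23.6% lower of all genes. In D vs. A, 2 of the 6 *Zkscan* genes, which also encode SCAN and KRAB domains, were lower and none higher. Of the 22 *Zbtb* genes, 1 was lower and 3 were higher, beside 11.5% lower and 10.5% higher of all genes. The differences between families were not tested.

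Promoters, taken as the 250 bases before and 50 after a start in RefSeq (GRCm38.p6), were found for 143 members with 178 windows. A metal response element, read as TGCACNC or TGCGCNC on either strand, occurred in 28.1% of these windows and in 25.7% of all 32851. It was present in 2 of the 11 windows of members higher past both thresholds in C vs. D and in 26 of the 84 windows of members lower past both. A heat shock element, read as 3 alternating GAA and TTC units on either strand, occurred in 1 of the 178 windows (0.562%) beside 0.603% of all windows. It lay in the *Zfp384* promoter on chromosome 6, shown here with the match in capitals at chr6:125010367-125010396 on the plus strand:
Zfp384: aattttgtTTCCAGAAAGTTCaggagccct
*Zfp384* had 11.8 to 12.5 FPKM in A, 18.3 to 19.3 in B, 14.8 to 21.04 in C and 12.8 to 15.8 in D. Such a match is a description of the sequence and not a site of binding.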

How the data were processed

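The authors deposited FPKM values for 12 libraries, with replicates kept apart. The submitters' processing notes name fastp, HISAT2, HTSeq and GRCm39, without versions, and the paper's own comparisons used DESeq2. Each library was placed in its group by its label. The members and lists were chosen with earlier results of these data known.

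From the FPKM, log2(FPKM + 1) was compared for genes with a mean of at least 1 FPKM with limma 3.58.1 (R 4.3.3; 4 groups, mean-variance trend, two-sided, Benjamini-Hochberg over 10615 genes), a step tested on simulated data. Reads were recovered from the spacing of the values (whole, within 0.01 reads, for 22212 of 22212 genes) and refitted with limma-voom after scaling by the trimmed mean of M values. Named genes were the 4 highest in group A, the 8 largest changes each way in C vs. D, 6 in C vs. B and 3 in D vs. A, the role lists, and the 2 genes on each side of the threshold. Coding sequences from GENCODE M21 were translated to search for motifs, since no table of RefSeq proteins was used here. Alternatives were another pseudocount (0.1), filter, scaling, a replicate block, a fit of only the 2 groups at hand, and leaving out each library in turn.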

Additional observations from a re-analysis of the deposited data

How the results depend on the processing

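All 16 members named for C vs. D and all 12 named for C vs. B kept their direction and stayed past the adjusted p under every alternative in which they were tested. The counts of members moved more. Those in C vs. D and B vs. A are past both thresholds, and those in C vs. B and D vs. A past the adjusted p alone. Under median-ratio scaling they were 42 lower and 41 higher in C vs. D (25.1% and 27.8% of all genes). They were 50 and 35 in B vs. A (24.6% and 26.9%), and 22 and 2 in D vs. A (7.23% and 8.6%). Under quantile normalization they were 28 and 38 in C vs. D (23.1% and 21.4% of all genes). They were 24 and 38 in B vs. A (22.2% and 20.7%), and 22 and 10 in D vs. A (11.2% and 13.5%). With limma-voom on recovered reads, 61 were lower and 39 higher in C vs. D (34.8% and 27.5% of all genes). The counts were 65 and 35 in B vs. A (33.2% and 27%), and 41 and 11 in D vs. A (13.9% and 14.4%). A filter at a mean of 3 FPKM, which tests fewer members, left 47 lower in C vs. D, 55 in B vs. A and 16 in D vs. A. TPM gave 14 lower in C vs. B (19.7% of all genes), and 21 lower and 3 higher in D vs. A (8.01% and 7.9%). A pseudocount of 0.1 gave 13 lower and 3 higher in D vs. A (5.45% and 7.99% of all genes). No filter gave 13 lower in C vs. B and 3 higher in D vs. A. Apart from the filter's smaller list, the cause was not tested. Of 74 genes chosen on group B, 11 were lower and 10 higher in C vs. D (36.4% and 16.9% of all genes at that level), and 9 lower and 4 higher in D vs. A (6.89% and 14.8%). Of 153 chosen on group D, 19 were lower in D vs. A (10.1% of all genes at that level); the choices for C vs. D on group B and for D vs. A on group D were added after the data were seen. Leaving out 1 library at a time gave 13 to 20 lower and 21 to 37 higher in C vs. B, and 17 to 31 lower and 2 to 6 higher in D vs. A. The main fit did not treat the replicate numbers as pairs. With group means removed, the correlation of same-numbered libraries of different groups averaged 0.125 (-0.171 to 0.579). Differently numbered libraries averaged -0.059 (-0.51 to 0.367), so a pairing is not excluded. With a replicate block the counts were 90 lower and 8 higher in C vs. D (53.3% and 11.2% of all genes). They were 22 and 28 in C vs. B (24.7% and 21.5%), and 37 and 10 in D vs. A (13% and 11.6%). Members near 0 in groups B and C rest on few reads, such as 9 to 31 per library for *Zfp358* in group C.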
